A study of Mus musculus with 10 samples.

Results

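The cytochrome P450 genes of families 1 to 4 were followed in RNA-seq libraries of mouse hepatocytes from an EP300 deletion experiment. They were taken by name: protein-coding genes whose symbol is Cyp, a digit from 1 to 4, a letter and a number, with at least 10 counts in at least 2 libraries. Of 80 protein-coding genes with such a symbol, 60 passed, out of 55385 genes in the table. The other 20 fell under the limit, and 11 of them had 0 counts in every library. Just inside the limit were Cyp2t4, with 13 and 15 counts in the WT libraries and 7 and 6 in the KO libraries, and Cyp2d11, with 9 and 6 against 14 and 11. Just outside were Cyp2s1, with 19 and 8 against 5 and 6, and Cyp2d12, with 12 and 8 against 7 and 3. Cyp2t4 and Cyp3a44 passed through the WT libraries only, and Cyp2d11 and Cyp3a41b through the KO libraries only, so a difference in these 4 genes is partly set by the limit.

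All mice carried floxed EP300 alleles (EP300 f/f) on the strain labelled C57BL/6J 129SV, were fed DDC, and received the plasmid pT3-cMet by hydrodynamic tail vein injection, with tissue taken at 5 months. The 2 libraries labelled EP300 KO came from mice given AAV-TBG-Cre (genotype label EP300-/-), and the 2 labelled EP300 WT from mice given AAV-TBG-GFP. The TBG promoter directs expression to hepatocytes, so other cell types keep the intact allele. Hepatocytes were obtained by liver perfusion and FACS. DDC is a diet additive that damages the heme of P450 enzymes and raises liver porphyrins, and cMet is a receptor tyrosine kinase that drives liver tumours when overexpressed. The titles of all 4 libraries begin with HCC, the usual short form of hepatocellular carcinoma. How much of the material was tumour was not tested. All 4 libraries share the diet and the plasmid, so the comparison asks what differed with the Cre vector in this injured, cMet-injected liver labelled HCC. The labels give neither the sex of the mice nor a tie between libraries and animals, and p-values therefore measure only the spread between libraries, which may be technical.

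Cytochrome P450 enzymes are heme-containing monooxygenases, mostly bound to the endoplasmic reticulum, which receive electrons from P450 oxidoreductase and cytochrome b5. Families 1 to 3 metabolise drugs, other foreign compounds and steroids, and family 4 hydroxylates fatty acids and eicosanoids. In liver, their genes are among the classic targets of the receptors AhR, CAR, PXR and PPARA, and in mice many differ between the sexes through the pattern of growth hormone release. Most lie in tandem arrays of closely related copies.

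The libraries held 18575701 and 18831671 counts (WT) and 17709799 and 17811489 (KO-labelled). The targeted gene, Ep300, had 62.4 and 57.9 CPM (counts scaled to library size, with edgeR's TMM factors) in the WT libraries and 73.7 and 72.3 in those labelled KO, a log2 change of 0.28 ± 0.07 (SE; edgeR adjusted p = 0.00498). Its level was thus higher, not lower, in the libraries labelled KO. The labels do not say which exons are floxed, so a count over the whole gene does not show whether they were removed, and every direction below is that of the label. Xist, the RNA of the inactive X chromosome, had 0.158 and 0.104 CPM in the WT libraries and 133.7 and 81.1 in the KO-labelled ones, while 4 Y chromosome genes had log2 fold changes between -0.28 and 0.16, not called, and a summed CPM from 107.4 to 124.2 over all 4 libraries. Of the hepatocyte markers, 2 of 7 were higher and 3 lower, with summed CPM of 105900 and 105100 against 94570 and 98220. Markers of other cells were lower in part (2 of 4 biliary markers tested, 3 of 5 endothelial, 3 of 6 stellate or fibroblast, 2 of 3 neutrophil) or higher (2 of 5 macrophage), with no marker at 0 in all 4 libraries. Summed CPM, WT against KO-labelled, were 138.2 and 139 against 103.7 and 103.5 (biliary), 229.8 and 225.1 against 201.6 and 176.2 (endothelial), 152.2 and 152.3 against 139.8 and 131.5 (stellate or fibroblast), 13.6 and 15.4 against 10.7 and 8.74 (neutrophil) and 267.8 and 266.2 against 311.5 and 308 (macrophage). Over all genes tested, 16.7% were called higher and 17.5% lower, and calls in lists this short are a description only. None of the 5 T and B cell markers was abundant enough to be tested. The part of these markers in the results below was not tested, and fewer cells of a type and less RNA per cell cannot be told apart.

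Most P450 genes of these families differed between the groups, in both directions. In the KO-labelled libraries 31 of the 60 were called higher and 15 lower, and 14 were not called (edgeR quasi-likelihood test, adjusted p below 0.05 over 14200 genes). Across all genes tested, 34.2% were called, 16.7% higher and 17.5% lower, against 51.7% and 25% of these genes. Changes of at least 2-fold were called upward in 17 of the 60, where the share of all genes was 3.15%, and downward in 7, where it was 5.01%. The median log2 fold change was 0.30, against -0.01 over all genes. The groups did not overlap in 54 of the 60 (90%), and in 66.4% of all genes. Among the 56 genes that had not passed through 1 group only, 30 were higher, 14 lower and 12 not called, with the same median of 0.30.

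**Figure D1:**
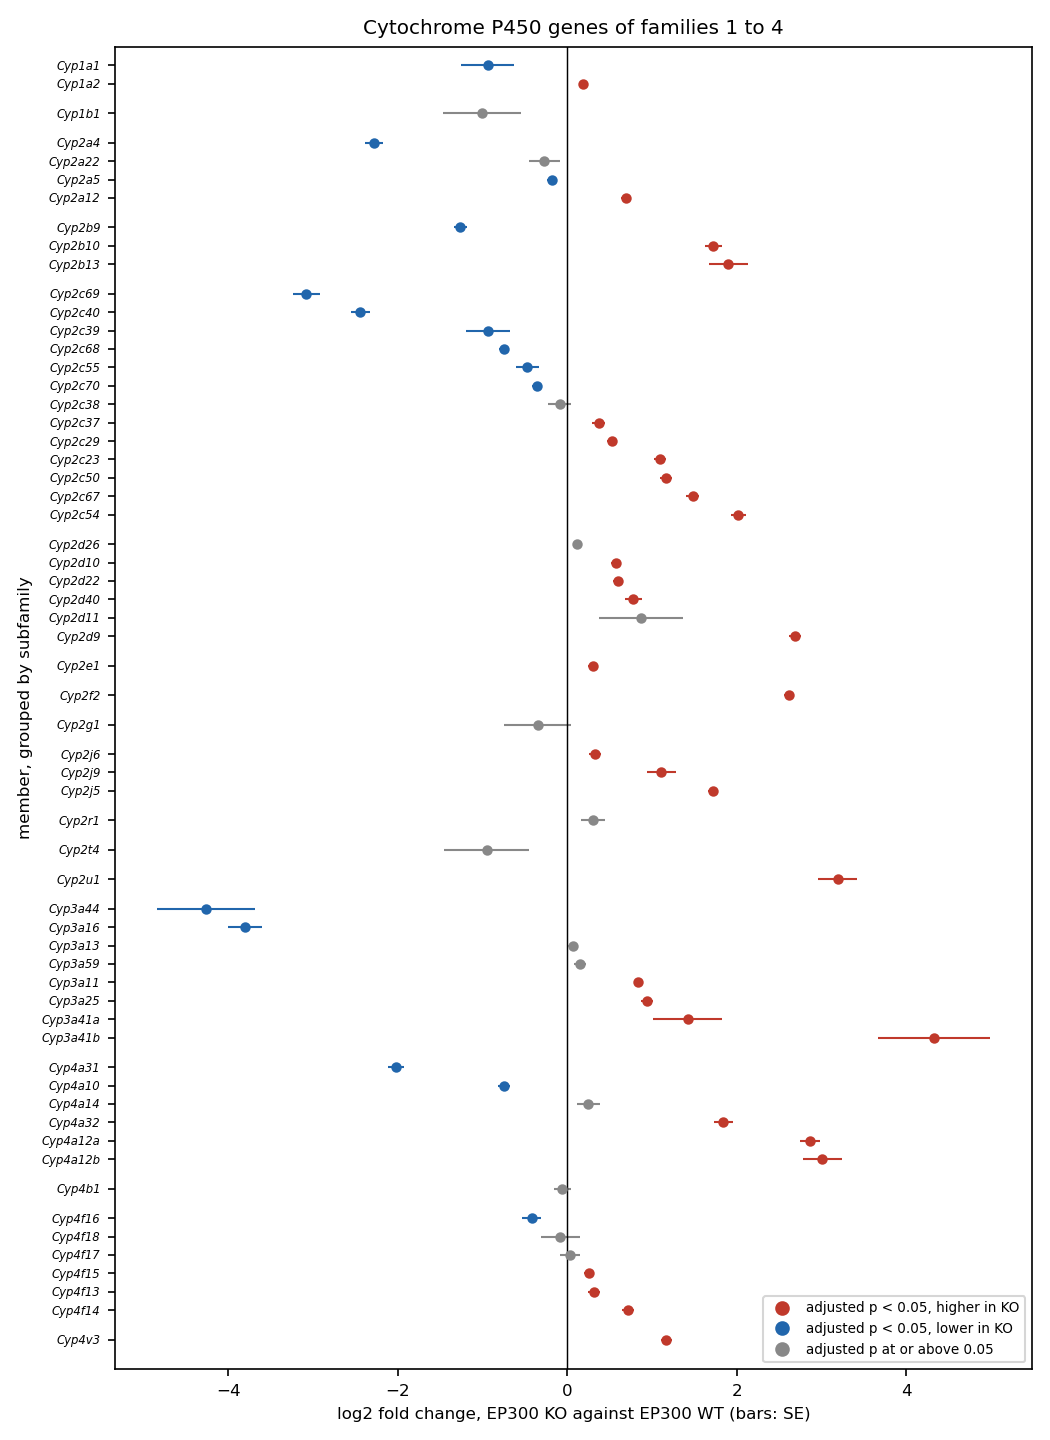
Log2 fold change of each of the 60 P450 genes, KO-labelled against WT libraries (n = 2 each), grouped by subfamily, with bars for ± 1 SE from edgeR (red, called higher; blue, called lower; grey, not called). Genes called higher and lower stand side by side within Cyp1a, Cyp2a, Cyp2b, Cyp2c, Cyp3a, Cyp4a and Cyp4f, whereas every called gene of Cyp2d and Cyp2j was higher.

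The subfamilies fell into those that moved one way and those that were divided. Cyp2d (4 of 6 called), Cyp2j (3 of 3) and the single-gene groups Cyp2e, Cyp2f, Cyp2u and Cyp4v were higher wherever they were called. Cyp1a, Cyp2a, Cyp2b, Cyp2c, Cyp3a, Cyp4a and Cyp4f each held genes called in both directions. The division was least certain in Cyp1a and Cyp4f. Their only genes called lower, Cyp1a1 and Cyp4f16, lost their calls with DESeq2 and without either WT library. Cyp1b1, Cyp2g1, Cyp2r1, Cyp2t4 and Cyp4b1, each the only gene of its subfamily here, were not called. Of 113 pairs within a subfamily in which both genes were called, 58 had opposite signs.

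Cyp2a4 showed the largest loss of transcript among the abundant genes. Cyp2a4, a testosterone hydroxylase with higher expression in female mouse liver, had 2129 and 2082 CPM in the WT libraries and 359.3 and 507.1 in the KO-labelled ones. Both KO-labelled libraries were far below both WT libraries, a 4.86-fold lower mean with a log2 change of -2.28 ± 0.11 (SE; edgeR adjusted p = 1.2e-10). Its near-identical neighbour Cyp2a5, a coumarin hydroxylase, had 2765 and 2716 CPM against 2213 and 2619. The groups did not overlap, but the KO-labelled libraries differed from each other more than the mean difference of -0.18 ± 0.06 on the log2 scale (edgeR adjusted p = 0.0367). Without KO-labelled replicate 1 the Cyp2a5 difference was -0.05 and no longer called (adjusted p = 0.144), and it was also not called without either WT library, with DESeq2 or without the filter on low counts. Cyp2a12 moved the other way, from 468.6 and 466.8 CPM to 751.7 and 758.9, a log2 change of 0.69 ± 0.05 (edgeR adjusted p = 3.6e-08). Cyp2a22, at 6.65 CPM in WT libraries, was not called.

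Cyp2a4 (chr7:26307169-26315088) and Cyp2a5 (chr7:26835305-26843548) are shown because 2 genes of nearly the same sequence changed by such different amounts. Their coding sequences were 98.4% identical. The 250 bases before each start in RefSeq (GRCm38.p6, the assembly of the mm10 build named for these data) were 98.4% identical over 249 aligned bases. They lie at chr7:26306942-26307191 (plus strand) and chr7:26835089-26835338 (plus strand), and the capitals mark the 4 bases that differ.
Cyp2a4: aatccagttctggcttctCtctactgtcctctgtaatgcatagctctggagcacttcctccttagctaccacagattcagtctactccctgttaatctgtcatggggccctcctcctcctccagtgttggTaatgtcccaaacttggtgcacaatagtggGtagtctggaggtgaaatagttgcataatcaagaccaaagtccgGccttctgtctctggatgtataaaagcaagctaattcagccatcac
Cyp2a5: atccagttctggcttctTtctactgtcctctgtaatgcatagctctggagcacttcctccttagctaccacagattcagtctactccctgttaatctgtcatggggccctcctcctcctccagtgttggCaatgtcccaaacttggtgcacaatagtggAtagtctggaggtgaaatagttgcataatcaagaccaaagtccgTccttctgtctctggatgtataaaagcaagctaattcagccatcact
Both hold the letters TATAAA near the start. Of the 50-base windows of their transcripts, 38.0% (Cyp2a4) and 40.8% (Cyp2a5) also occur in another gene, and the sources do not state how reads matching both were counted. The sum of this pair, which is unaffected by how reads were split between them, was 4894 and 4799 CPM against 2572 and 3126.

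Cyp2b genes were divided between 2 that rose and 1 that fell. Cyp2b10, the classic phenobarbital-induced target of CAR, had 28.2 and 24.6 CPM against 95.3 and 78.1, a log2 change of 1.72 ± 0.10 (SE; edgeR adjusted p = 1.34e-09). Cyp2b13, a female-biased gene, rose from 2.21 and 2.65 CPM to 11.1 and 7.07 (log2 fold change 1.90 ± 0.23, edgeR adjusted p = 1.02e-05). Cyp2b9, also female-biased, fell from 72.9 and 69.0 CPM to 30.4 and 28.6 (log2 fold change -1.26 ± 0.08, edgeR adjusted p = 2.66e-09). No library of one group overlapped the other in any of the 3, which also held for 66.4% of all genes. On levels per kilobase of exon, Cyp2b9 made up 72.8% and 73.8% of the subfamily's sum in the WT libraries and 24.1% and 27.2% in the KO-labelled ones, where Cyp2b10 held 67.1% and 66.0%.

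Cyp2b9 and Cyp2b13 lie next to each other among these genes and are shown because they moved in opposite directions with almost the same upstream letters. Their coding sequences were 92.8% identical and the 250 bases before the start 99.2%. These stretches lie at chr7:26173159-26173408 (plus strand) and chr7:26061245-26061494 (plus strand) in GRCm38.p6, from RefSeq, with the 2 differing bases in capitals.
Cyp2b9: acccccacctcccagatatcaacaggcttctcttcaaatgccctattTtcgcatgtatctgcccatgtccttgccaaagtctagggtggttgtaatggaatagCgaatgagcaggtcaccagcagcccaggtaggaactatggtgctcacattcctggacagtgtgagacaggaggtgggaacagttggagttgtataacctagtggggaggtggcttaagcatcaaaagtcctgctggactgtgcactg
Cyp2b13: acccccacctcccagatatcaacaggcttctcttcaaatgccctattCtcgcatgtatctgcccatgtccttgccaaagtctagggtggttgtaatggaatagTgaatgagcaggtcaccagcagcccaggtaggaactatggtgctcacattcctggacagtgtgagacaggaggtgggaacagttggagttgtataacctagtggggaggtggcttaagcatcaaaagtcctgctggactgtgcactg
The log2 ratio of Cyp2b13 to Cyp2b9, on levels per kilobase, was -5.04 and -4.70 in the WT libraries and -1.45 and -2.02 in the KO-labelled ones. Cyp2b9 remained the more abundant of the pair in all 4 libraries. An exact permutation test of such a ratio with 2 libraries against 2 cannot give a p below 0.333, so these ratios are described and not tested. Of the transcript windows, 27.3% of those of Cyp2b13 and 11.2% of those of Cyp2b9 also occur in another gene. Cyp2b13 had 42 and 51 counts in the WT libraries, and Cyp2b9 1385 and 1328. The values and ratios of this pair thus depend on a counting of shared reads that is not stated. The sum of the pair fell from 75.15 and 71.66 CPM to 41.55 and 35.7 in the KO-labelled libraries.

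**Figure D2:**
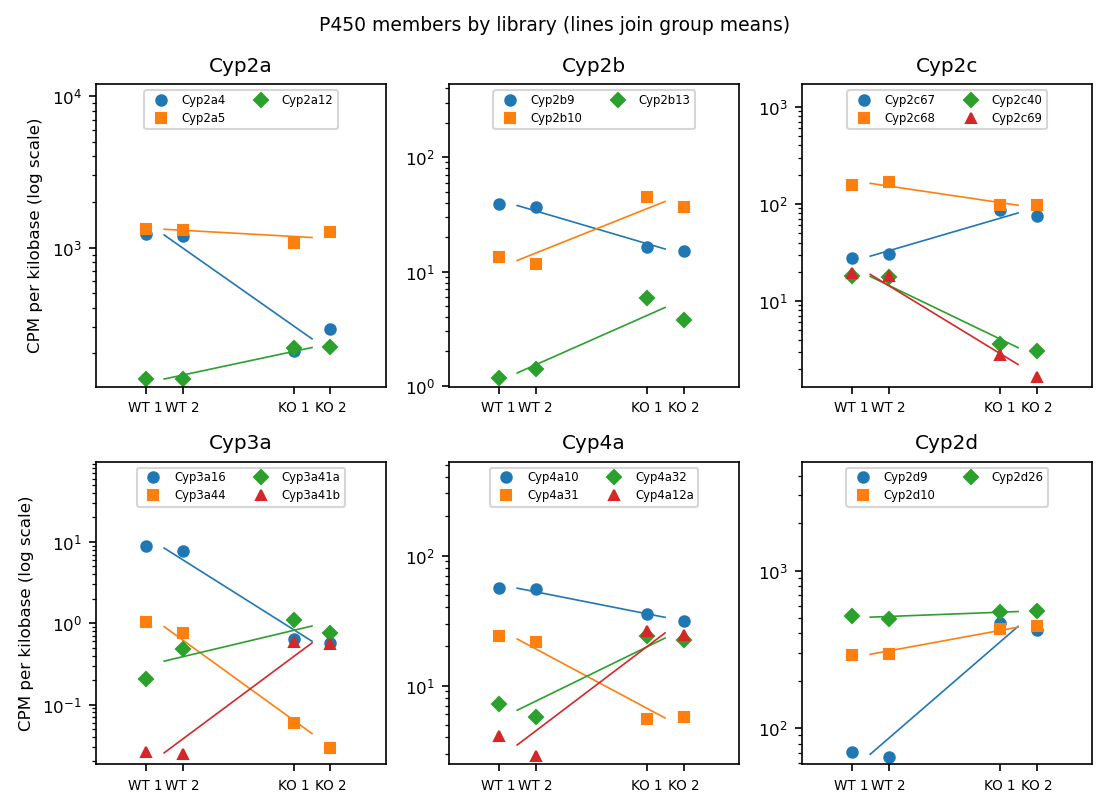
CPM per kilobase of exon (log axes, each panel with its own range) of related genes within 6 subfamilies, 1 point per library, with lines joining the group means. The order of Cyp2b10 and Cyp2b9, and of Cyp4a31 and Cyp4a32, differs between WT and KO-labelled libraries.

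Cyp2c, whose enzymes oxidise drugs and arachidonic acid, was the largest and most evenly divided subfamily, with 6 genes higher, 6 lower and 1 not called. Cyp2c54 rose most, from 45.1 and 51.5 CPM to 214.8 and 176.5 (log2 fold change 2.02 ± 0.09 SE, edgeR adjusted p = 7.79e-11), followed by Cyp2c67, from 48.0 and 52.2 to 149.7 and 129.8 (1.48 ± 0.08, edgeR adjusted p = 5.45e-10). Both KO-labelled libraries lay above both WT libraries for each gene. Groups were apart, in either direction, in 66.4% of all genes. Cyp2c69 fell most, from 33.5 and 30.7 CPM to 4.75 and 2.82 (log2 fold change -3.08 ± 0.16, edgeR adjusted p = 3.65e-10), and Cyp2c40 fell from 37.1 and 35.7 to 7.29 and 6.15 (-2.44 ± 0.11, edgeR adjusted p = 9.25e-11). These were 8.48-fold and 5.41-fold lower means. The same subfamily also held Cyp2c50, with 304.7 and 295.9 CPM against 724.8 and 627.9, and Cyp2c23, with 90.4 and 97.2 against 208.7 and 191.6, both higher. Cyp2c29 was higher at 650.3 and 641.8 against 979.2 and 880.7 CPM. Cyp2c68, at 271.2 and 290.6 against 166.5 and 167.5 CPM, was lower, as was Cyp2c70, which makes the muricholic acids of mouse bile, at 648.7 and 661.8 against 513.6 and 505.4. Several smaller calls were lost when 1 library was left out: Cyp2c37 (log2 fold change 0.37) was not called without either WT library, Cyp2c39 (-0.93) not without WT replicate 1, and Cyp2c55 (-0.47) not without KO-labelled replicate 1 or either WT library. Cyp2c39 and Cyp2c55 were also not called with DESeq2 or without the filter on low counts, nor Cyp2c37 without that filter. Cyp2c38 had 25.6 and 27.1 CPM against 29.8 and 19.5, with the KO-labelled libraries on both sides of the WT ones, and was not called. Without KO-labelled replicate 1 it was called lower, at -0.42.

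Cyp2c67 and Cyp2c69 are shown because they had similar levels in the WT libraries and parted in the KO-labelled ones. The log2 ratio of Cyp2c67 to Cyp2c69 per kilobase was 0.50 and 0.75 in the WT libraries and 4.96 and 5.51 in the KO-labelled ones. Their coding sequences were 97.7% identical, and the upstream sequences 93.0% over 200 aligned bases, since the annotated starts do not fall at the same base of the alignment. The stretches lie at chr19:39649043-39649292 (minus strand) and chr19:39886770-39887019 (minus strand) in GRCm38.p6, from RefSeq, with the 14 differing bases in capitals.
Cyp2c67: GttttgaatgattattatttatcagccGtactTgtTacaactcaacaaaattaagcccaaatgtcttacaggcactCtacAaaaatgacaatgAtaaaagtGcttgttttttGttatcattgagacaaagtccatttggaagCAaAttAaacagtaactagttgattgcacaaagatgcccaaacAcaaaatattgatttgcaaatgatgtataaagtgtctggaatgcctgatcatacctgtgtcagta
Cyp2c69: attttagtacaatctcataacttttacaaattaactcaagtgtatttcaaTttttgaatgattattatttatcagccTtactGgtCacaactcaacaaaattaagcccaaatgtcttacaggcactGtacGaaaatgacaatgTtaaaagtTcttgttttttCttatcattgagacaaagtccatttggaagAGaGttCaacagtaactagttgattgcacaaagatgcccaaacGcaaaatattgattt
Both hold CAAAGTCCA, the letters of an HNF4A-type motif, with no differing base inside it. Cyp2c67 also opposed Cyp2c68, at 97.2% coding identity: the log2 ratio per kilobase went from -2.51 and -2.48 to -0.16 and -0.37. Between 43.3% and 72.1% of the 50-base transcript windows of Cyp2c40, Cyp2c67, Cyp2c68 and Cyp2c69 occur in another gene. The summed CPM of these 4 genes was 389.8 and 409.2 against 328.2 and 306.3, a log2 ratio of means of -0.33. The sum of Cyp2c37, Cyp2c50 and Cyp2c54 was 521.8 and 512 against 1179 and 1000, a log2 ratio of 1.08.

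Cyp3a, led by the PXR-induced drug-metabolising gene Cyp3a11, held its 2 most abundant genes among those that rose and a steep fall in the rarer Cyp3a16. Cyp3a11 had 2181 and 2378 CPM against 4080 and 4073, a log2 change of 0.84 ± 0.05 (SE; edgeR adjusted p = 2.54e-09), and Cyp3a25 had 297.1 and 312.4 against 635.1 and 535.7. Neither overlapped between groups (nor did 66.4% of all genes), and both were called higher. Cyp3a16, a gene known from fetal and female liver, fell from 15.6 and 13.5 CPM to 1.10 and 0.977 (log2 fold change -3.80 ± 0.20, edgeR adjusted p = 6.12e-10). Cyp3a44, a female-biased gene, had 39 and 29 counts in the WT libraries and 2 and 1 in the KO-labelled ones, a depth-corrected ratio of 20.6-fold lower with a 95% interval from 6.74 to 102 that covers counting error only. Cyp3a41b had 1 and 1 counts against 21 and 20, a ratio of 22.6 with an interval from 5.87 to 193. Cyp3a44 passed the count limit through the WT libraries only and Cyp3a41b through the KO-labelled ones only, so the limit itself favoured these directions and the ratios are a description, not a test. Cyp3a41a had 8 and 19 counts against 39 and 27 (log2 fold change 1.42 ± 0.41, edgeR adjusted p = 0.0137), and was not called without WT replicate 1 (log2 fold change 0.95) or KO-labelled replicate 1 (1.14), with DESeq2 or without the filter on low counts. Cyp3a13, at 188.9 and 205.4 CPM against 216 and 197.8, and Cyp3a59 were not called.

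The 2 Cyp3a41 copies were 99.9% identical in coding sequence, and 98.6% (Cyp3a41a) and 93.5% (Cyp3a41b) of their 50-base windows occur elsewhere, so counts of the single copies are uncertain. Their sum was 9 and 20 counts against 60 and 47, with Cyp3a41b admitted through the KO-labelled libraries only. Cyp3a44, 95.8% identical in coding sequence to Cyp3a41a, shared only 26.5% of its windows with other genes. Its upstream stretch at chr5:145805875-145806124 (minus strand) and that of Cyp3a41a at chr5:145720137-145720386 (minus strand) (GRCm38.p6, RefSeq) are shown because of the unlike counts of these related genes: per kilobase, the log2 ratio of Cyp3a41a to Cyp3a44 was -2.35 and -0.68 in the WT libraries and 4.22 and 4.70 in the KO-labelled ones. That ratio rests on 2 and 1 counts of Cyp3a44, on its admission through the WT libraries only, and on the uncertain call of Cyp3a41a. Capitals mark the 14 bases that differ.
Cyp3a41a: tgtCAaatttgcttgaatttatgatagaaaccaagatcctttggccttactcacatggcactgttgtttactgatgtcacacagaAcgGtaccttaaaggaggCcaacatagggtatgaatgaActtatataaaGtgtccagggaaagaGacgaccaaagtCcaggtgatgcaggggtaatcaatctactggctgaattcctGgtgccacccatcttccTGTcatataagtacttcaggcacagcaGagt
Cyp3a44: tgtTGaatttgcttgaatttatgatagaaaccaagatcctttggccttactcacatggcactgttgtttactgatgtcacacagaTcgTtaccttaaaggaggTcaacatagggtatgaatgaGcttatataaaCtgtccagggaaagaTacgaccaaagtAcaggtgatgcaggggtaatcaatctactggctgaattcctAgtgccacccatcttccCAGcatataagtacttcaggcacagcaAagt
One of the capitals falls inside the CAAAGTCCA of Cyp3a41a, so these exact letters are not in the window of Cyp3a44. Cyp3a16, which also fell, does hold them.

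Cyp4a, the fatty acid omega-hydroxylases best known as PPARA targets, rose in 3 genes and fell in 2. Cyp4a12a, a male-biased gene, rose from 9.90 and 7.02 CPM to 64.2 and 58.8 (log2 fold change 2.86 ± 0.12 SE, edgeR adjusted p = 2.91e-11), and its copy Cyp4a12b from 1.16 and 2.18 to 15.3 and 11.8 (3.01 ± 0.23, edgeR adjusted p = 4.06e-08). The copies share 98.6% of their coding sequence, and their sum was 11.1 and 9.20 CPM against 79.5 and 70.6. Cyp4a32 rose as well, from 11.1 and 8.78 CPM to 36.6 and 34.6. Cyp4a31 fell from 59.9 and 54.5 CPM to 13.8 and 14.5 (log2 fold change -2.02 ± 0.09, edgeR adjusted p = 7.85e-11), and Cyp4a10 from 119.5 and 117 to 75.3 and 65.8 (-0.75 ± 0.07, edgeR adjusted p = 6.41e-07). None of these 5 genes overlapped between groups, nor did 66.4% of all genes. Cyp4a31 and Cyp4a32 were 96.0% identical in coding sequence, and their log2 ratio per kilobase turned from 1.73 and 1.92 in the WT libraries to -2.12 and -1.96. Shared 50-base windows made up 46.8% of Cyp4a32, 30.5% of Cyp4a10, 21.8% of Cyp4a31, 48.9% of Cyp4a12a and 49.4% of Cyp4a12b, so single-copy values and ratios depend on a counting of shared reads that is not stated. The sum of Cyp4a10, Cyp4a31 and Cyp4a32 was 190.5 and 180.3 CPM against 125.7 and 114.8. Cyp4a14, a female-biased PPARA target, had 57.8 and 54.8 CPM against 82.3 and 52.0. Its KO-labelled libraries lay on both sides of the WT ones and it was not called, but it was called higher without KO-labelled replicate 2 (0.55).

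The largest rises outside the divided subfamilies were in Cyp2d9, Cyp2f2, Cyp2u1 and Cyp2j5. Cyp2d9 (chr15:82433437-82456845), a male-biased testosterone hydroxylase, had 188.2 and 175.6 CPM against 1245 and 1111, a log2 change of 2.69 ± 0.07 (SE; edgeR adjusted p = 5.78e-14). Cyp2f2 (chr7:27119909-27133660), known for oxidising naphthalene, had 151.9 and 141.9 CPM against 940.6 and 865.5, a 6.15-fold higher mean (log2 fold change 2.62 ± 0.06, edgeR adjusted p = 4.85e-14). Each KO-labelled library was several-fold above each WT library in both genes. Cyp2u1 (chr3:131288441-131303227), a fatty acid hydroxylase, rose from 1.369 and 0.987 CPM to 12.04 and 9.54 (log2 fold change 3.19 ± 0.23, edgeR adjusted p = 1.97e-08). Another gene overlaps 9.3% of the exon bases of Cyp2d9, 13.5% of Cyp2f2 and 10.5% of Cyp2u1, and whether the counting used strand is not given. Cyp2j5, an epoxygenase, rose from 87.7 and 89.4 CPM to 305.6 and 279.5 (log2 fold change 1.72 ± 0.06, edgeR adjusted p = 7.42e-12). Cyp2j9 and Cyp2j6 were higher too, by 1.11 and 0.33 on the log2 scale, the latter not called without WT replicate 2. In Cyp2d, Cyp2d10 (481.9 and 489.8 against 705.7 and 738.7 CPM), Cyp2d22 and Cyp2d40 were also higher. Cyp2d26, at 926.8 and 890.4 against 983.4 and 989.4 CPM, missed the threshold (log2 fold change 0.12 ± 0.05, edgeR adjusted p = 0.0856). It was called without either KO-labelled library and with limma-voom.

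Cyp2e1, the ethanol- and acetaminophen-oxidising enzyme of pericentral hepatocytes, rose from 2314 and 2324 CPM to 2955 and 2762 (log2 fold change 0.30 ± 0.05 SE, edgeR adjusted p = 0.000159). Cyp4v3, a fatty acid hydroxylase, rose from 153.8 and 149.8 to 351.2 and 330.1 (1.17 ± 0.06, edgeR adjusted p = 3.65e-10). In Cyp4f, whose enzymes inactivate leukotrienes, Cyp4f14 rose from 109.2 and 103.7 CPM to 183.3 and 167.3 (0.72 ± 0.07, edgeR adjusted p = 3.54e-07) and Cyp4f13 by 0.32 ± 0.07 (edgeR adjusted p = 0.00195). Cyp4f16 fell from 16.9 and 17.5 CPM to 12.6 and 13.0 (log2 fold change -0.42 ± 0.11, edgeR adjusted p = 0.00635). Cyp4f15 was called higher at 0.26. The calls of Cyp4f15 and Cyp4f16 were lost without either WT library, that of Cyp4f16 also with DESeq2, and that of Cyp4f13 without WT replicate 1. Cyp4f17 and Cyp4f18 were not called.

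Cyp1a2 and Cyp1a1, both targets of AhR, differed in direction. Cyp1a2 had 379.9 and 380.8 CPM against 442.2 and 427.6 (log2 fold change 0.19 ± 0.05 SE, edgeR adjusted p = 0.0113), and was not called without either WT library. Its call was also lost when scaling used library size alone (0.13). Cyp1a1 had 2.48 and 2.08 CPM against 1.16 and 1.21 (-0.94 ± 0.31, edgeR adjusted p = 0.0282), and was not called when any of the 4 libraries was left out, with DESeq2 or without the filter on low counts. Cyp1b1, the third gene of the family, had 1.10 ± 0.454 CPM against 0.548 ± 0.043 (mean ± SD, n = 2 each) and was not called.

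The makeup of the P450 transcript pool shifted from Cyp2a towards Cyp3a, Cyp2d and Cyp2f2. Levels are compared between genes here as CPM per kilobase of exon. The sum over the 60 genes was 7094 ± 9.49 in the WT libraries and 8254 ± 97.3 in the KO-labelled ones (mean ± SD, n = 2 each), a ratio of 1.16. Cyp2a held 38.0% and 37.3% of the sum in the WT libraries and 17.9% and 21.7% in the KO-labelled ones, with sums of 2671 ± 36.2 and 1635 ± 200. Cyp3a went from 9.37% and 10.1% to 14.5% and 14.0%, and Cyp2f2 from 1.06% and 0.989% to 5.58% and 5.22%. Cyp2d rose from a mean sum of 932.6 to 1528, Cyp2c from 1053 to 1311, and Cyp2j from 54.7 to 147.2. The Cyp4a sum was 111.2 against 119.1, while 5 of its 6 genes were called. Within Cyp4a, Cyp4a10 and Cyp4a31 went from 49.5% and 51.5%, and 20.9% and 20.1%, to 27.6% and 28.7%, and 4.24% and 5.31%. Cyp4a12a went from 3.57% and 2.69% to 20.5% and 22.3%.

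**Figure D3:**
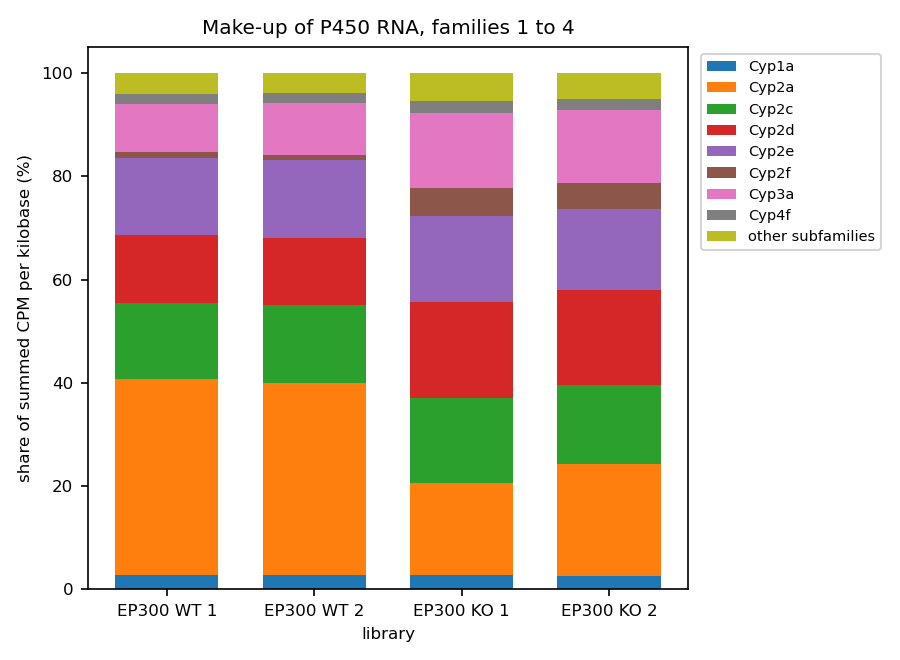
Share of the summed CPM per kilobase of exon held by each subfamily in each of the 4 libraries, in percent, with the smaller subfamilies joined as other. Cyp2a takes 38.0% and 37.3% in the WT libraries and 17.9% and 21.7% in the KO-labelled ones.

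The order of single genes changed accordingly. In the WT libraries the 5 highest levels per kilobase were those of Cyp2a5 (1322 ± 16.5, mean ± SD, n = 2), Cyp2a4 (1212 ± 19.1), Cyp2e1 (1074 ± 3.24), Cyp2d26 (507 ± 14.4) and Cyp3a11 (447.6 ± 27.4). Neighbours in this order were further apart than their SDs. In the KO-labelled libraries Cyp2e1 led (1325 ± 63.2), followed by Cyp2a5 (1165 ± 138.4), Cyp3a11 (800.4 ± 0.893), Cyp2d26 (550.4 ± 2.35) and Cyp2f2 (445.9 ± 26.2). Cyp2e1 and Cyp2a5 were closer than their SDs together, with 1280 and 1263 in KO-labelled replicate 2. Cyp2f2, Cyp2d9 (443.2 ± 35.7) and Cyp2d10 (438.2 ± 14.2) did not differ beyond their spread. Cyp2a4 went from place 2 to place 11 and Cyp2f2 from place 15 to place 5. The place of Cyp3a11 depends on the length used: with its longest transcript in place of all exon bases its levels were 813.6 and 1455. Other places may depend on it too. Cyp2d9 has 2658 exon bases but a longest transcript of 1712. Its place, and those of Cyp2f2 and Cyp2d10 beside it, hold for all exon bases only. For Cyp2d9 and Cyp2f2 the longest transcript was not tried.

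Opposite calls were found at every level of coding identity. Of 18 pairs within a subfamily with at least 95% identity, 16 had both genes called and 6 of these were opposed, or 4 of 12 without the genes that passed the count limit through 1 group only. Over all pairs it was 58 of 113, or 53 of 104 without those genes. From 90% to 95% identity, 6 of 10 called pairs were opposed, from 80% to 90% 11 of 20, from 70% to 80% 28 of 49, and below 70% 7 of 18. A gene enters several pairs, so these shares are a description without a test. With 31 genes called higher and 15 lower, many called pairs would be opposed whatever their identity. The opposed pairs of at least 95% identity lie among Cyp2c67, Cyp2c68 and Cyp2c69, among Cyp4a10, Cyp4a31 and Cyp4a32, and between the Cyp3a41 copies and Cyp3a44. Their single-gene values depend on a counting of shared reads that is not stated. Neighbours along the chromosome were also divided. In 7 clusters of at least 3 of these genes (50 genes in all), 28 neighbouring pairs had both genes called and 11 were opposed, or 9 of 27 without the genes admitted through 1 group only. The Cyp2c cluster (chr19:39007019-40187333, Cyp2c55 to Cyp2c70) held 5 genes higher and 6 lower among 12, with 5 of 9 called neighbour pairs opposed. In the Cyp3a cluster (chr5:145436309-146113287) 3 of 5 such pairs were opposed, all resting on Cyp3a41b or Cyp3a44, and 1 of 3 without them. The cluster of Cyp2b, Cyp2a, Cyp2f2 and neighbours (chr7:25897620-27158668) had 1 of 4 and the Cyp4a and Cyp4b1 cluster (chr4:115299046-115647723) 1 of 3. The Cyp2d and Cyp2j clusters had none, with 2 called neighbour pairs each.

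**Figure D4:**
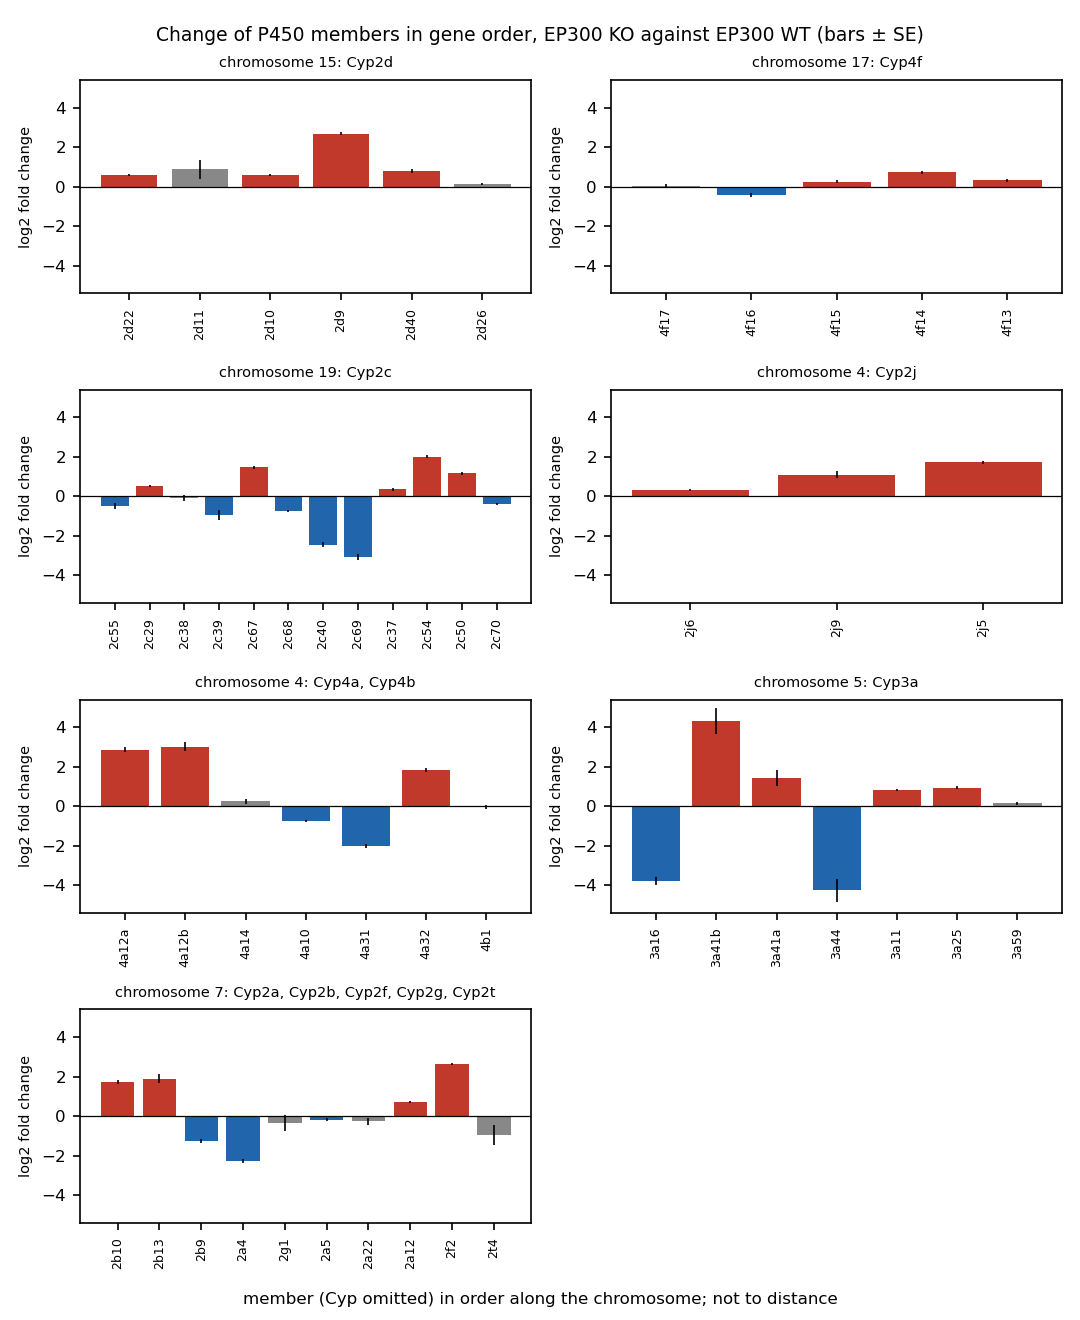
Log2 fold change (KO-labelled against WT, bars ± 1 SE) of the P450 genes in their order along 7 chromosomal clusters, not to distance (red, called higher; blue, called lower; grey, not called). Genes called higher and lower are interleaved in the Cyp2c cluster, where 5 of 9 neighbouring called pairs have opposite signs.

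Upstream sequences were compared as a group. For 49 of the 60 genes RefSeq (GRCm38.p6) gave a start, with 54 windows of 250 bases, and 7 sets of letters were searched on both strands in these and in all 32851 such windows. CAAAGTCCA (HNF4A-type) was in 16.7% of the P450 windows and 0.384% of all windows. It was found in Cyp2c40, Cyp2c67, Cyp2c68, Cyp2c69, Cyp2c70, Cyp3a11, Cyp3a16, Cyp3a41a and Cyp3a41b, that is in 4 of 25 matched genes that were higher and 5 of 13 that were lower. TATAAA, the letters of the core promoter TATA box, was in 44.4% against 12.4%. It was counted anywhere in the 250 bases, and some matches lie far from the start, as in Cyp3a11 at -234. TTGCNNAA (C/EBP-type) was in 27.8% against 9.56%, ATTGAT (Onecut-type) in 22.2% against 6.72% and AGGTCA (nuclear receptor half-site) in 24.1% against 14.0%. GCGTG (AhR core) was in 14.8% against 28.2%, and TTCNNNGAA (STAT5-type) in 3.7% against 7.02%, only in Cyp4b1 and Cyp4f13. Many of these genes share their upstream sequence through duplication and are not independent, and a match is no evidence of binding.

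Genes known to differ between the sexes were among the largest changes. The 4 genes listed as male-biased in mouse liver (Cyp2d9, Cyp4a12a, Cyp4a12b and Cyp2u1) were all higher in the KO-labelled libraries, with a median log2 fold change of 2.94 and summed CPM of 200.6 and 185.8 against 1336 and 1191. Of 13 listed as female-biased, 7 were lower (Cyp2a4, Cyp2b9, Cyp2c39, Cyp2c40, Cyp2c69, Cyp3a16 and Cyp3a44), 4 higher (Cyp2b10, Cyp2b13, Cyp3a41a and Cyp3a41b) and 2 not called (Cyp2c38 and Cyp4a14), with a median of -0.93. These counts include Cyp3a44, admitted through the WT libraries only, and Cyp3a41b, admitted through the KO-labelled ones only. The limit favoured the directions of both. The calls of Cyp2c39 and Cyp3a41a were lost with DESeq2. The summed CPM of the female-biased genes was 2409 and 2346 against 627.4 and 706.9, most of it Cyp2a4. Without Cyp2a4 the other 12 summed to 280.1 and 263.9 against 268.1 and 199.8, and the groups overlapped. Xist was present only in the KO-labelled libraries at more than 1 CPM, and Y chromosome genes in all 4. The part of the animals' sex in these changes was not tested, since the labels do not give it. Among all 60 P450 genes 51.7% were higher and 25% lower, and over all genes tested 16.7% and 17.5%. The 2 lists were written with the results of these data known.

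The growth hormone axis, which sets sex-biased P450 expression in mouse liver, changed in all 9 of its listed genes, 4 higher and 5 lower. Over all genes tested, 34.2% were called, 16.7% higher and 17.5% lower. Bcl6, a repressor with higher expression in male liver, had 7.58 and 5.66 CPM against 51.7 and 45.6 (log2 fold change 2.88 ± 0.12 SE, edgeR adjusted p = 3.6e-11). Cux2, a female-biased factor, had 63.0 and 62.9 against 25.5 and 15.9 (-1.61 ± 0.14, edgeR adjusted p = 1.49e-07). The receptors moved apart, with Ghr higher at 1.35 ± 0.07 (edgeR adjusted p = 4.72e-10) and the prolactin receptor Prlr lower at -1.14 ± 0.07 (edgeR adjusted p = 2.85e-09). Socs2, a feedback inhibitor induced by STAT5, fell from 78.2 and 79.0 CPM to 24.8 and 27.3 (log2 fold change -1.60 ± 0.08, edgeR adjusted p = 2.03e-10). The signal transducers moved little, with Stat5b at -0.19 ± 0.07, Jak2 at -0.30 ± 0.10 and Stat5a at 0.40 ± 0.14 (edgeR adjusted p = 0.0475, 0.0336 and 0.0381), and Igf1 stood at 0.28 ± 0.06 (edgeR adjusted p = 0.00113). These values are given beside the sex-biased genes, and their part in them was not tested.

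The listed nuclear receptors, with AhR and its partner Arnt, were divided, 6 higher and 6 lower of 13 tested, none by 2-fold. Not all of them induce P450 genes. Over all genes tested 16.7% were higher and 17.5% lower, and among the 60 P450 genes 51.7% and 25%. These shares stand beside the counts of every list in this paragraph. Nr1i2 (PXR) had 82.3 and 86.7 CPM against 109.4 and 109.2 (log2 fold change 0.37 ± 0.06 SE, edgeR adjusted p = 0.00025) and Nr1i3 (CAR) 33.4 and 33.8 against 47.7 and 41.0 (0.40 ± 0.09, edgeR adjusted p = 0.00188), with 74.9% of the exon bases of Nr1i3 overlapped by another gene. Nr1h4, Nr0b2, Ppara and Rxra were higher by 0.22 to 0.68, and the lower ones ran from -0.58 (Esr1) to -0.22 (Ahr), with Arnt and Nr3c1 among them. Of P450 genes known to be induced through CAR or PXR, 6 of 8 were higher and 1 lower, with a median log2 fold change of 0.68. Other known CAR and PXR targets were 6 higher and 5 lower of 15, with a median of -0.01, Ces2a (1.33) and Akr1b7 (-2.56) having the largest changes. P450 genes induced by PPARA were 1 higher and 2 lower of 4, and other PPARA targets 10 higher and 5 lower of 18, led by Fgf21 (-2.65) and Acot1 (1.78). Of the other AhR targets, 3 of 4 tested were lower and 1 was not called, Nqo1 (-1.16) and Tiparp (-0.45) most. Among 11 liver transcription factors, Cebpb was higher (118.6 and 121.9 CPM against 239.9 and 322, log2 fold change 1.22 ± 0.10, edgeR adjusted p = 8.04e-08), Foxa3 (-0.50 ± 0.07, adjusted p = 2.29e-05) and Ctnnb1 (-0.19 ± 0.06, adjusted p = 0.0209) lower, and 8 were not called, among them Hnf4a with 619.2 and 619.7 CPM against 658.1 and 666.3.

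None of the called genes that supply P450 enzymes with electrons and heme changed by 2-fold. Of 8 electron partners 5 were higher and 1 lower, where 16.7% of all genes tested were higher and 17.5% lower. Por, the P450 oxidoreductase, had 1321 and 1257 CPM against 1429 and 1416 (log2 fold change 0.14 ± 0.05 SE, edgeR adjusted p = 0.0375). Pgrmc1, a P450-binding heme protein, rose by 0.44 ± 0.05 (edgeR adjusted p = 4.4e-06), the mitochondrial reductase Fdxr by 0.76 ± 0.08 (1.84e-06), and cytochrome b5 (Cyb5a) fell by 0.31 ± 0.06 (0.000328). Of 9 heme genes 4 were higher and 5 were not called. Alas1, the rate-limiting enzyme of heme synthesis in liver, rose from 489.4 and 461.6 CPM to 814.3 and 888.1 (log2 fold change 0.84 ± 0.06, edgeR adjusted p = 1.45e-08). Cpox (0.45 ± 0.08, edgeR adjusted p = 0.00028), Ppox (0.32 ± 0.09, 0.013) and Uros (0.29 ± 0.10, 0.0398) were higher as well, and Alad, Fech and Hmox1 were among those not called. P450 genes known from pericentral hepatocytes, Cyp27a1 of another family among them, were higher in 8 of 9, with a median of 0.37. That median is near the 0.30 of all 60 P450 genes, of which 51.7% were higher. The largest rises, such as Cyp2f2 (2.62), lay outside this list. Whether pericentral genes differed from the other P450 genes was not tested. Of 14 P450 genes of other families tested, 6 were higher and 4 lower, with a median of -0.01. The largest changes there were in Cyp7b1, the oxysterol hydroxylase of bile acid synthesis (13.7 and 11.7 CPM against 125.1 and 108.2, log2 fold change 3.20), and Cyp17a1, a steroid hydroxylase (37.6 and 38.5 against 6.60 and 5.86, -2.61).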

How the data were processed

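Raw counts per gene were deposited by the authors for 2 libraries labelled EP300 KO and 2 labelled EP300 WT. STAR, HTSeq, DESeq2 and the mm10 build are named per the submitters' processing notes, without roles, while the deposited table's own name refers to Hisat, and the annotation and the use of strand are not given in the sources used here. The extract protocol per the labels names a TruSeq RNA kit. In the same table, 4 further columns match no sample of the series and were not used, and the tables of the diet groups were not used here because their gene identifiers are of another kind.

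Counts were fitted with edgeR 4.0.16 in R 4.3.3 (filterByExpr with a minimum count of 10, TMM scaling, quasi-likelihood test, group as the only term, Benjamini-Hochberg adjustment over 14200 genes), with the SE taken from the log2 fold change and its F value. The fit has 2 residual degrees of freedom and a common biological coefficient of variation of 5.47%. Within groups, the chi-square of the counts per degree of freedom was 2.6 (WT) and 5.5 (KO), so no pair of libraries was a duplicate. Tested on simulated data for this comparison (14103 genes), the fit recovered 66%, 88%, 94% and 98% of 1.5-, 2-, 4- and 8-fold changes with 3 false calls. The simulation gave every gene in both groups the same common variation, unlike the real libraries, so these are not the error rates of the real fit. Lengths, coordinates, coding identity and shared 50-base windows were computed from GENCODE M21 (mm10). Intervals of low-count ratios are exact at 95% and, as PCR copies are not independent, cover counting error only.

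The P450 genes and all lists were written with earlier results of these data known. Any P450 gene could be named with its values. Full statistics were given to the 2 largest changes in each direction in divided subfamilies, the largest change in others, the 5 most abundant per kilobase in either group, Ep300, and those genes of the regulator, electron and heme lists that are described singly. The rule gave them to every gene of these 3 lists, but smaller changes in them are printed as log2 values or ranges only. Cyp3a41b and Cyp3a44 are printed without p-values, because the count limit admitted them through 1 group. The other lists gave their 2 largest changes. Some listed genes are not reported here by name. Alternatives were DESeq2 1.42.0, limma-voom 3.58.1, other scalings and filters, a test against a 1.5-fold change, and each library left out.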

Additional observations from a re-analysis of the deposited data

How the results depend on the processing

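Of the 60 P450 genes, all kept their direction and call with RLE size factors or with the 20 most abundant genes left out, and 59 with limma-voom. DESeq2 and the fit without the low-count filter each ended 6 calls, and the test against a 1.5-fold change 20, leaving 18 higher and 8 lower. The numbers of P450 genes called lay between 26 and 35 higher and 10 and 14 lower when each library was left out. For single genes that left-out range was -0.42 to 0.18 (Cyp2c38), -1.17 to 0.18 (Cyp2g1), -0.10 to 0.55 (Cyp4a14) and -0.11 to 0.19 (Cyp4f17). Over all genes, 1416 were higher and 1287 lower without the filter, 429 and 562 against a 1.5-fold change, and 1614 lower with DESeq2. Leaving out each library gave 1160 to 2574 higher and 1146 to 2580 lower. Scaling by library size alone gave 1846 higher and 3056 lower against 2366 and 2485, since it moved the median log2 fold change of all genes from -0.01 to -0.07. Reversals were limited to genes not called: Cyp2c38 and Cyp2g1 without KO replicate 2, Cyp4a14 without KO replicate 1, and Cyp4f17 without WT replicate 1 and with library size alone (-0.04). The cause of these shifts was not tested. With 2 libraries a group, 1 left out leaves a lone library that is assumed to vary like the others. Genes of few counts, such as Cyp3a41b, are limited by depth.

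Same-numbered libraries did not deviate together over all genes (correlation 0.0061). With 2 libraries a group this value cannot show whether the numbers pair libraries, and the labels give no pairing. With the replicate number as a block, 2526 genes were higher and 2664 lower, with 32 and 15 P450 genes, and Cyp4a14 was called (0.23, adjusted p = 0.009).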
